A study of Mus musculus with 9 samples.

Results

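Protein S and growth arrest-specific 6 are secreted ligands of the TAM receptors, a family of 3 receptor tyrosine kinases named after Tyro3, Axl and Mertk. Their 5 genes, Pros1, Gas6, Tyro3, Axl and Mertk, were taken from a table of 18820 genes measured in mouse hippocampus. The family was chosen by the array signal of Pros1, whose call between Maresin 1 treated and control mice was already known, and the other members follow from it as ligand and receptors, with no threshold. The Pros1 values against control are therefore given as a description and support nothing. Each of the 5 genes had 1 probe set that names it alone, so no choice between probe sets was needed.

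All animals were C57BL/6 mice, 12 to 14 weeks old, and the tissue was whole hippocampus, with 3 arrays in each of 3 groups. The Surgery+Maresin1 mice received Maresin 1, a pro-resolving lipid derived from docosahexaenoic acid in macrophages, before a tibia fracture operation. The Surgery mice had the operation alone, and hippocampi were taken 72 h after it. The Control mice carry no procedure in the labels, so no group separates anaesthesia, vehicle or handling from the fracture. Arrays within a group are labelled as biological replicates. The labels state neither the dose of Maresin 1 nor the sex of the mice.

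Dying cells turn the lipid phosphatidylserine to their outer surface. Protein S and Gas6 bind it through a domain of gamma-carboxylated glutamates, made with vitamin K, and hold a TAM receptor on a phagocyte with their other end. In the mouse brain, microglia use Mertk and Axl to clear dying newborn neurons, and signalling through the receptors dampens innate immune responses. Protein S also circulates in blood as the cofactor of the anticoagulant activated protein C.

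Levels below are log2 of the quantile-normalized array signal plus 16, and a difference of 1 on this scale is a doubling where the signal is well above 16. The authors deposited linear signals whose array medians ran from 54.1 to 100.1, with Control replicate 1 the brightest array and Surgery replicate 1 the dimmest. All 5 genes lay in every array above 5.86, the level under which 95% of 990 olfactory receptor genes fell on average. The 13 hippocampal neuron markers measured of 14 listed had means above that level. Control replicates 2 and 3 stood apart by the markers of the choroid plexus, the fluid-producing epithelium of the brain ventricles. The 17 measured markers of 19 listed summed to a normalized signal of 1289 to 1461 in the Surgery+Maresin1 arrays and 1136 to 1348 in the Surgery arrays, against 1143 in Control replicate 1 and 17842 and 22113 in Control replicates 2 and 3, and none of them was listed at 0. In bulk tissue, fewer cells of a type and less RNA per cell cannot be told apart.

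The promoter windows of both ligand genes are shown because these genes gave the differences with the smallest p among the 5, in opposite directions. They are RefSeq windows of 300 bases around the annotated start, most of it upstream, in build GRCm38.p6, and all 5 genes matched. Pros1 lies on the plus strand with its window at chr16:62854057-62854356, and Gas6 on the minus strand at chr8:13494486-13494785. Capitals mark GC boxes, the letters GGGCGG on either strand, a sequence that Sp1 family factors bind.
Pros1: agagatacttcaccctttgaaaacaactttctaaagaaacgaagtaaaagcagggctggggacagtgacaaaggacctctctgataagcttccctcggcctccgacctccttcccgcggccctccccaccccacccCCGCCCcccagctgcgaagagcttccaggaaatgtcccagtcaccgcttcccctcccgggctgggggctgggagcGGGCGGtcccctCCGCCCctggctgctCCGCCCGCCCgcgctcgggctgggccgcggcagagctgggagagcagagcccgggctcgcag
Gas6: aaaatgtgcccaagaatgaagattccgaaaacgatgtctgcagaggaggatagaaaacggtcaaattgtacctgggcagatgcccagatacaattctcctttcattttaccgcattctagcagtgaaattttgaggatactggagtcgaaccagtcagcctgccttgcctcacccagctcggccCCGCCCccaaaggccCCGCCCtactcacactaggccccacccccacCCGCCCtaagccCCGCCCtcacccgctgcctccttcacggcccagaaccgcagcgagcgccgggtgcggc
The Pros1 window holds 5 GC boxes, 2 of them overlapping, and the Gas6 window holds 4. The Tyro3, Mertk and Axl windows hold 6, 4 and 2, with overlaps among the Tyro3 boxes. Of 32851 windows of 300 bases, 35.7% hold at least 1 such box and 5.5% hold 4 or more. The letters TATAAA, in 13.6% of windows, and TGANTCA, the AP-1 motif in 7.8%, occur in 0 of the 5 windows on either strand. The matches describe letters only, and nothing about binding was measured.

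Pros1 was higher in the operated mice of both groups than in control mice. Its levels were 7.72, 7.46 and 7.56 in the Surgery+Maresin1 arrays, 7.29, 7.51 and 7.46 in the Surgery arrays, and 6.98, 6.75 and 7.04 in the Control arrays. The lowest operated array thus stood above the highest control array, while the operated groups overlapped each other. Group means were 7.58 ± 0.13 with Maresin 1 and surgery, 7.42 ± 0.12 after surgery and 6.93 ± 0.15 in control (SD, n = 3 each). With Maresin 1 the level exceeded control by 0.66 on the log2 scale, or 1.58-fold (SE 0.10, 95% interval 0.43 to 0.88, limma adjusted p = 0.0382). This was the only one of the 5 genes past the threshold of 0.05 in that comparison, beside 0.085% of all genes, a count that the choice of Pros1 fixed.

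After surgery alone Pros1 was 1.41-fold higher than in control (log2 0.50, SE 0.10, interval 0.27 to 0.72) and did not pass (limma adjusted p = 0.483). It ranked 14 of 18820 genes by p in that comparison and 13 in the comparison of Maresin 1 with control, and both use the same control arrays. Between Surgery+Maresin1 and Surgery it differed by 0.16 (SE 0.10, interval -0.06 to 0.39, limma adjusted p = 0.876). The data therefore leave room for a Maresin 1 difference in operated mice of up to 0.39 and also for none.

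Before normalization the deposited Pros1 signals were 197, 147 and 180 in the Surgery+Maresin1 arrays, 97.2, 187 and 183 in the Surgery arrays, and 144, 84.0 and 104 in the Control arrays. On this scale the dimmest array, Surgery replicate 1, lies among the controls, and the brightest, Control replicate 1, lies just below the lowest Surgery+Maresin1 array. The separation of the Surgery and Control arrays for Pros1 thus rests on the normalization between arrays. The call against control with Maresin 1 was lost without Control replicate 2 (0.57), Surgery+Maresin1 replicate 1 (0.59), replicate 2 (0.72) or replicate 3 (0.67), with limma adjusted p from 0.0734 to 0.209. The size of the difference ranged from 0.50 to 0.73 over 18 alternatives.

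**Figure D1:**
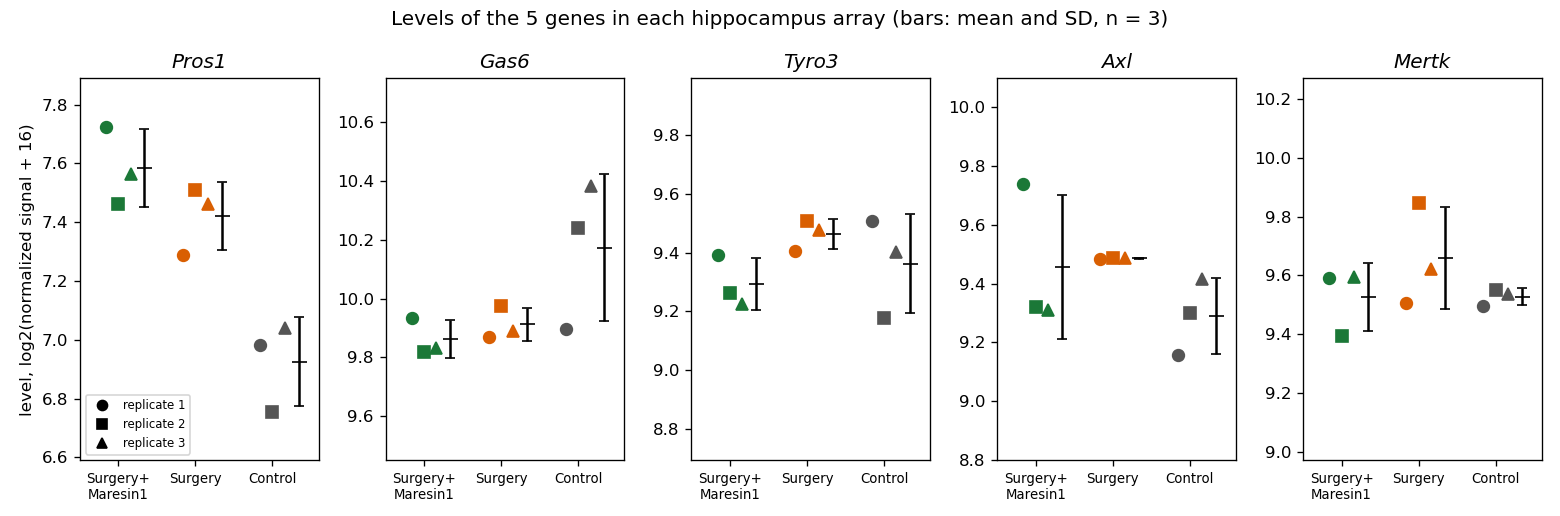
Level of each gene in every array, as log2 of the normalized signal plus 16, for the Surgery+Maresin1, Surgery and Control groups, with replicates as symbols and the mean and SD of 3 arrays as bars; all panels span the same range. The Pros1 points of the operated mice lie between 7.29 and 7.72, above all control points, while Gas6 is high in Control replicates 2 and 3 only.

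Endothelial cells are a known source of protein S, and markers of this cell type differed between the same groups. All 15 measured endothelium markers of 16 listed were higher after surgery than in control, beside 58.4% of all genes. All 15 were also higher with Maresin 1 and surgery than in control, beside 49% of all genes. Limma called 0 of them in either comparison, beside 0.085% of all genes with Maresin 1 and 0% after surgery. At an unadjusted p under 0.05 stood 9 with Maresin 1 (beside 11.5% of all genes) and 11 after surgery (beside 6.21%). Their median difference was 0.32 with Maresin 1 against control and 0.36 for surgery against control, beside -0.003 and 0.02 for all genes. The summed normalized signal ran from 3890 to 5062 in the Surgery+Maresin1 arrays and from 4576 to 4899 in the Surgery arrays, against 3465 to 3672 in the Control arrays, and no marker was listed at 0. Among the 15 markers the highest difference was 0.49 with Maresin 1 and 0.59 after surgery. Surgery+Maresin1 replicate 2 had an endothelium score of -0.12, the mean centred log2 level of the markers, against 0.23 and 0.13 in the other arrays of its group, and a Pros1 level of 7.46. Of the 12 pericyte and smooth muscle markers, all measured, 8 were higher with Maresin 1 than in control (49% of all genes). After surgery 12 were higher than in control (58.4%). Their medians were 0.12 and 0.25, beside -0.003 and 0.02 for all genes. Limma called 0 of them, beside 0.085% of all genes with Maresin 1 and 0% after surgery. At an unadjusted p under 0.05 stood 4 with Maresin 1 (beside 11.5% of all genes) and 7 after surgery (beside 6.21%). The highest of these markers was Acta2, smooth muscle actin, at 0.67 with Maresin 1 and 0.79 after surgery, both above the Pros1 differences. The part of vessel cells in the Pros1 difference was not tested.

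Gas6, the ligand that binds all TAM receptors and Axl most tightly, was lower in the operated mice on average, and the control arrays decided this. Its levels were 9.94, 9.82 and 9.83 in the Surgery+Maresin1 arrays, 9.87, 9.98 and 9.89 in the Surgery arrays, and 9.90, 10.24 and 10.38 in the Control arrays. Control replicate 1 lies inside the range of the 6 operated arrays, and only Control replicates 2 and 3 lie above it. The mean was 9.86 ± 0.06 with Maresin 1 and surgery, 9.91 ± 0.06 after surgery and 10.17 ± 0.25 in control (SD, n = 3 each). With Maresin 1 the level differed from control by -0.31 (SE 0.10, limma adjusted p = 0.225), and after surgery by -0.26 (SE 0.10, limma adjusted p = 0.739). Between Surgery+Maresin1 and Surgery it differed by -0.05 (SE 0.10, interval -0.26 to 0.16).

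The Gas6 controls that stand high are the arrays with high choroid plexus signal, whose marker scores were 2.28 and 2.58 against -0.85 in Control replicate 1. Across the operated arrays the scores ran from -0.76 to -0.58. With the choroid plexus score as a covariate, the Gas6 difference from control was -0.06 with Maresin 1 (SE 0.08) and -0.002 after surgery (SE 0.08). Since the score sets Control replicates 2 and 3 apart from all other arrays, this fit comes close to a comparison with Control replicate 1 alone, which gave -0.04 and 0.01. The part of choroid plexus RNA in the Gas6 difference was not tested. Without Control replicate 1, which leaves the controls with high choroid plexus signal, it was -0.45 with Maresin 1 (limma adjusted p = 0.00303) and -0.40 after surgery (limma adjusted p = 0.00767). The Pros1 differences with Maresin 1 and after surgery were 0.62 and 0.45 with the covariate, and 0.60 and 0.44 against Control replicate 1 alone. With the covariate the Pros1 call with Maresin 1 was lost (limma adjusted p = 0.17).

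**Figure D2:**
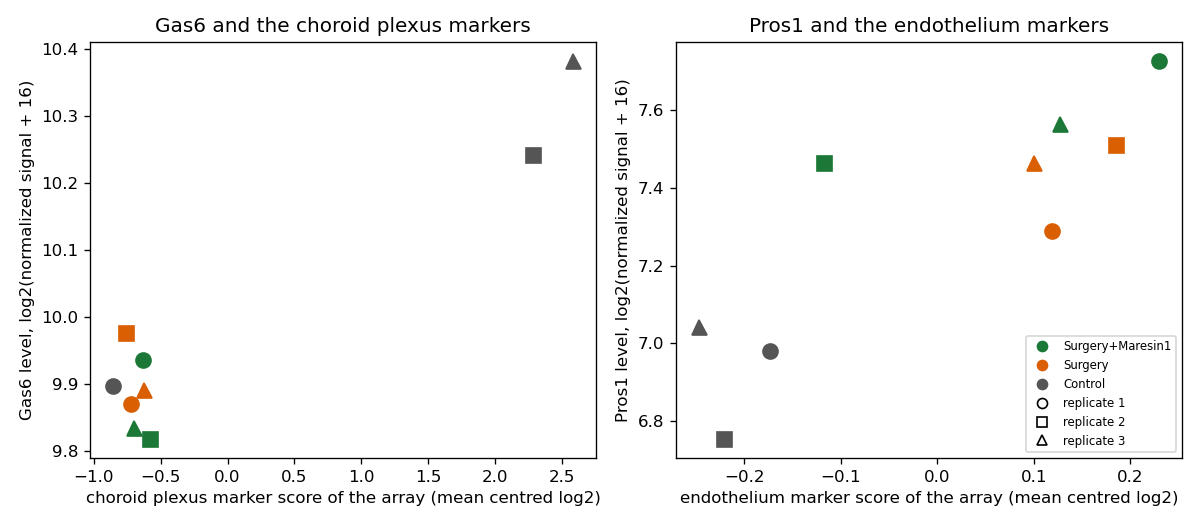
The left panel plots the Gas6 level of each array against its choroid plexus marker score, and the right panel the Pros1 level against its endothelium marker score, both scores as mean centred log2 levels, with groups as colours and replicates as symbols. Control replicates 2 and 3 stand alone at scores of 2.28 and 2.58 with Gas6 above 10.2, and the Control arrays are lowest on both axes for Pros1.

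Tyro3, the TAM receptor of neurons, had its lowest group mean with Maresin 1, while the lowest single array was Control replicate 2. Its levels were 9.39, 9.26 and 9.23 in the Surgery+Maresin1 arrays, 9.41, 9.51 and 9.48 in the Surgery arrays, and 9.51, 9.18 and 9.40 in the Control arrays. The arrays of the operated groups did not overlap, but replicate 1 of each lay at 9.39 and 9.41, and the control arrays spanned 0.33, from below one group to the top of the other. The mean was 9.29 ± 0.09 with Maresin 1 and surgery, 9.46 ± 0.05 after surgery and 9.36 ± 0.17 in control (SD, n = 3 each). The difference between Surgery+Maresin1 and Surgery was -0.17 (SE 0.08, interval -0.34 to 0.005, limma adjusted p = 0.859). Against control it was -0.07 with Maresin 1 and 0.10 after surgery (SE 0.08 each).

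Axl, a receptor of vessel cells, astrocytes and activated phagocytes, was not called in any comparison. Its levels were 9.74, 9.32 and 9.31 in the Surgery+Maresin1 arrays, 9.48, 9.49 and 9.49 in the Surgery arrays, and 9.16, 9.30 and 9.41 in the Control arrays. The Surgery arrays were nearly equal (SD 0.0013) and all stood above the controls, while Surgery+Maresin1 replicate 1 had the highest level of the 9 arrays and the other arrays of its group overlapped with control. The difference from control was 0.17 with Maresin 1 (SE 0.10, limma adjusted p = 0.589) and 0.20 after surgery (SE 0.10, limma adjusted p = 0.796). With the choroid plexus score as covariate these were 0.29 and 0.32 (SE 0.13 each), and against Control replicate 1 alone, the lowest array, 0.30 and 0.33. Between Surgery+Maresin1 and Surgery it differed by -0.03 (SE 0.10, interval -0.25 to 0.19). Surgery+Maresin1 replicate 1 also had the highest scores of the 9 arrays for astrocyte (0.18), microglia (0.14) and endothelium (0.23) markers, and their part in its Axl level was not tested.

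Mertk, the engulfment receptor of microglia and astrocytes, had nearly equal means with Maresin 1 and in control. Its levels were 9.59, 9.39 and 9.59 in the Surgery+Maresin1 arrays, 9.50, 9.85 and 9.62 in the Surgery arrays, and 9.49, 9.55 and 9.54 in the Control arrays. Surgery replicate 2 was the highest, and the remaining arrays of all groups overlapped. The difference was -0.002 between Surgery+Maresin1 and Control (SE 0.08, interval -0.18 to 0.18), -0.13 between Surgery+Maresin1 and Surgery (SE 0.08, limma adjusted p = 0.874), and 0.13 between Surgery and Control (SE 0.08, limma adjusted p = 0.831). Without Surgery replicate 2 the last was 0.04. That array also had the highest red cell and platelet score (0.50) and border macrophage score (0.16) of the 9 arrays. Of the 5 red cell and platelet markers measured of 8 listed, 3 had means above the olfactory receptor level. Of the 8 border macrophage markers, all measured, 3 did, so both scores rest partly on dim genes. The part of these cell types in the Mertk level was not tested. The 12 measured microglia markers of 13 listed had a median difference of 0.08 with Maresin 1 and 0.12 after surgery against control. Of these, 0 were called by limma, beside 0.085% of all genes with Maresin 1 and 0% after surgery. At an unadjusted p under 0.05 stood 2 with Maresin 1 (beside 11.5% of all genes) and 1 after surgery (beside 6.21%).

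Counted together, 0 of the 5 genes passed limma's threshold between Surgery+Maresin1 and Surgery, beside 0% of all genes, and 0 between Surgery and Control, beside 0%. At an unadjusted p under 0.05 there were 2 of 5 against control with Maresin 1 (11.5% of all genes), 0 of 5 between Surgery+Maresin1 and Surgery (5.66%), and 2 of 5 between Surgery and Control (6.21%), in each case of 2 Pros1 and Gas6. Groups did not overlap with Maresin 1 against control for 1 gene upward, Pros1 (7.61% of all genes), and 0 downward (6.71%). Between Surgery+Maresin1 and Surgery they did not overlap for 0 upward (4.79%) and 1 downward, Tyro3 (8.2%). After surgery against control they did not overlap for 2 upward, Pros1 and Axl (7.71%), and 0 downward (3.82%). Pros1 was chosen with its call with Maresin 1 against control known, and both comparisons with control share the control arrays. Its part in the counts against control therefore supports nothing. The differences of the 3 receptors from control lay between -0.07 and 0.20 in the operated groups. With arrays scaled to one median, which moved the median of all genes after surgery to 0.101, those after surgery were 0.36 for Axl, 0.30 for Mertk and 0.26 for Tyro3.

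**Figure D3:**
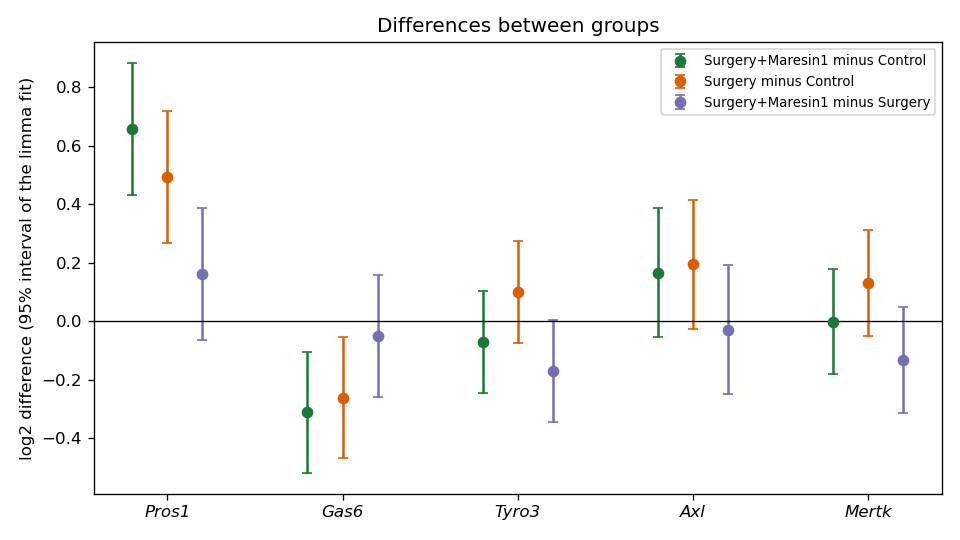
Differences between groups on the log2 scale for each gene, with 95% intervals of the limma fit over all 9 arrays. The intervals of Pros1 and Gas6 leave out 0 in both comparisons with control, while those of the 3 receptors include 0 in every comparison.

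The other genes of dead cell clearance and of the protein S system were taken from 7 lists with 123 genes, of which 113 were measured by a probe set of 1 gene. Limma called 0 of them in each comparison, beside 0.085% of all genes with Maresin 1 against control and 0% in the other comparisons. At an unadjusted p under 0.05 stood 5 higher and 6 lower with Maresin 1 against control (9.73%, beside 11.5% of all genes), 1 higher and 4 lower between Surgery+Maresin1 and Surgery (4.42%, beside 5.66%), and 4 higher and 3 lower between Surgery and Control (6.19%, beside 6.21%). These shares lie at or under those of all genes. Their median difference was -0.02 with Maresin 1 against control, -0.02 between Surgery+Maresin1 and Surgery, and 0.04 after surgery against control. Groups did not overlap for 15 of the 113 genes with Maresin 1 against control (all genes: 7.61% higher, 6.71% lower). The count was 19 between Surgery+Maresin1 and Surgery (4.79%, 8.2%) and 15 after surgery against control (7.71%, 3.82%). Non-overlap is stated below for some genes only, and other named genes, such as Adgrb1 and Havcr2, also showed it.

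Of the other bridging molecules and opsonins, 10 of 13 were measured, with medians of -0.07 with Maresin 1 against control and 0.02 for surgery against control. Mfge8, a phosphatidylserine bridge to integrins, differed by -0.12 (SE 0.06) between Surgery+Maresin1 and Surgery, without overlap. C1qa, of the complement component that tags debris and synapses, differed by 0.12 with Maresin 1 and 0.17 after surgery against control (SE 0.11 each). Anxa1, a bridging and pro-resolving protein, differed by -0.28 with Maresin 1 against control (SE 0.12, limma adjusted p = 0.384) at a mean level of 4.97, under the olfactory receptor level. Calr, the eat-me signal calreticulin, differed by -0.09 with Maresin 1 against control (SE 0.05).

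All 21 other engulfment receptors were measured, with medians of -0.007 with Maresin 1 and 0.04 after surgery against control. Timd2, a T cell immunoglobulin and mucin receptor, had the smallest p of the lists, with levels of 6.27, 6.21 and 6.61 in the Surgery+Maresin1 arrays, 5.58, 5.86 and 5.88 in the Surgery arrays, and 6.44, 6.22 and 5.85 in the Control arrays. The operated groups did not overlap, at a difference of 0.59 (SE 0.15, limma adjusted p = 0.859), and the control arrays reached into both. Itgam, a subunit of complement receptor 3, had levels of 8.18, 7.95 and 8.07 in the Surgery+Maresin1 arrays, 8.002, 8.25 and 8.11 in the Surgery arrays, and 7.83, 7.72 and 7.94 in the Control arrays. All operated arrays stood above the controls, Surgery+Maresin1 replicate 2 barely so, by 0.24 on average with Maresin 1 and 0.29 after surgery (SE 0.09 each, limma adjusted p = 0.331 and 0.680). Havcr2, the phosphatidylserine receptor TIM-3, differed by 0.18 and 0.22 against control (SE 0.08 each), and Adgrb1, the receptor BAI1, by -0.16 with Maresin 1 (SE 0.05, limma adjusted p = 0.210).

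Downstream of the receptors, 20 of 24 genes of engulfment and corpse digestion were measured, and their differences from control ran from -0.19 to 0.20 with Maresin 1 and from -0.20 to 0.16 after surgery. Vav3 differed by 0.20 between Surgery+Maresin1 and Surgery (SE 0.10), without overlap, and by -0.002 after surgery against control. Tyrobp, the adaptor of TREM2, differed by 0.17 with Maresin 1 against control (SE 0.09), and Abca7, a lipid transporter, by -0.16 (SE 0.08). Rxra, a nuclear receptor that partners the lipid sensors switched on by engulfed cholesterol, differed by -0.25 between Surgery+Maresin1 and Surgery (SE 0.09, limma adjusted p = 0.859). Of the genes that expose phosphatidylserine or signal to phagocytes, 19 of 20 were measured. Cx3cl1, a neuronal chemokine for microglia, differed by -0.15 with Maresin 1 against control (SE 0.05, limma adjusted p = 0.217), and the lipid flippase gene Atp11a by -0.18 with Maresin 1 and -0.20 after surgery (SE 0.08 each). The flippase genes Atp8a1 and Atp8a2 differed in opposite directions with Maresin 1 against control, by 0.11 (SE 0.05) and -0.20 (SE 0.09). Among 15 of 16 genes of TAM shedding, adaptors and feedback, Adam10, a protease that sheds membrane proteins, differed by 0.13 with Maresin 1 and 0.07 after surgery against control (SE 0.07 each), and the adaptor gene Nck2 by 0.11 between Surgery+Maresin1 and Surgery (SE 0.06). Pik3r2, a regulatory subunit of phosphoinositide 3-kinase, differed by -0.12 between Surgery+Maresin1 and Surgery (SE 0.06). Twist1, a transcription factor downstream of Axl, had a mean level of 5.62, under the olfactory receptor level.

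All 15 anticoagulant partners were measured, 10 with a mean above the olfactory receptor level. F5, coagulation factor V, whose active form is cleaved by activated protein C with protein S as cofactor, had levels of 5.87, 6.02 and 5.95 in the Surgery+Maresin1 arrays, 6.00, 5.92 and 6.12 in the Surgery arrays, and 5.92, 10.06 and 10.57 in the Control arrays. It was high in Control replicates 2 and 3 only, the arrays with high choroid plexus signal, and Control replicate 1 lay among the operated arrays. Thbd, thrombomodulin, the endothelial receptor that starts protein C activation, had levels of 7.01, 6.73 and 7.10 in the Surgery+Maresin1 arrays, 7.02, 7.03 and 7.34 in the Surgery arrays, and 6.62, 6.74 and 6.89 in the Control arrays. The Surgery arrays stood above the controls (0.38, SE 0.12, limma adjusted p = 0.683), and the Surgery+Maresin1 arrays overlapped with them (0.20, SE 0.12). Tfpi, the tissue factor pathway inhibitor, for which protein S is a cofactor too, differed by 0.16 with Maresin 1 and 0.26 after surgery against control (SE 0.10 each). F2, prothrombin, had a mean level of 5.43, under the olfactory receptor level.

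Of the vitamin K cycle and other Gla proteins, 13 of 14 were measured, with medians of -0.04 with Maresin 1 and 0.04 after surgery against control. Prrg1, a membrane protein with a Gla domain, had levels of 7.28, 7.47 and 7.46 in the Surgery+Maresin1 arrays, 7.23, 7.11 and 7.39 in the Surgery arrays, and 7.09, 7.03 and 7.16 in the Control arrays. The Surgery+Maresin1 arrays stood above the controls, at 0.31 (SE 0.10, limma adjusted p = 0.221), and the Surgery arrays overlapped with them. Prrg2, of the same family, differed by -0.24 with Maresin 1 (SE 0.09, limma adjusted p = 0.321), and Mgp, a Gla protein of vessel walls, by -0.32 between Surgery+Maresin1 and Surgery (SE 0.17). Nqo1, a quinone reductase, differed by -0.13 with Maresin 1 and -0.31 after surgery against control (SE 0.16 each).

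**Figure D4:**
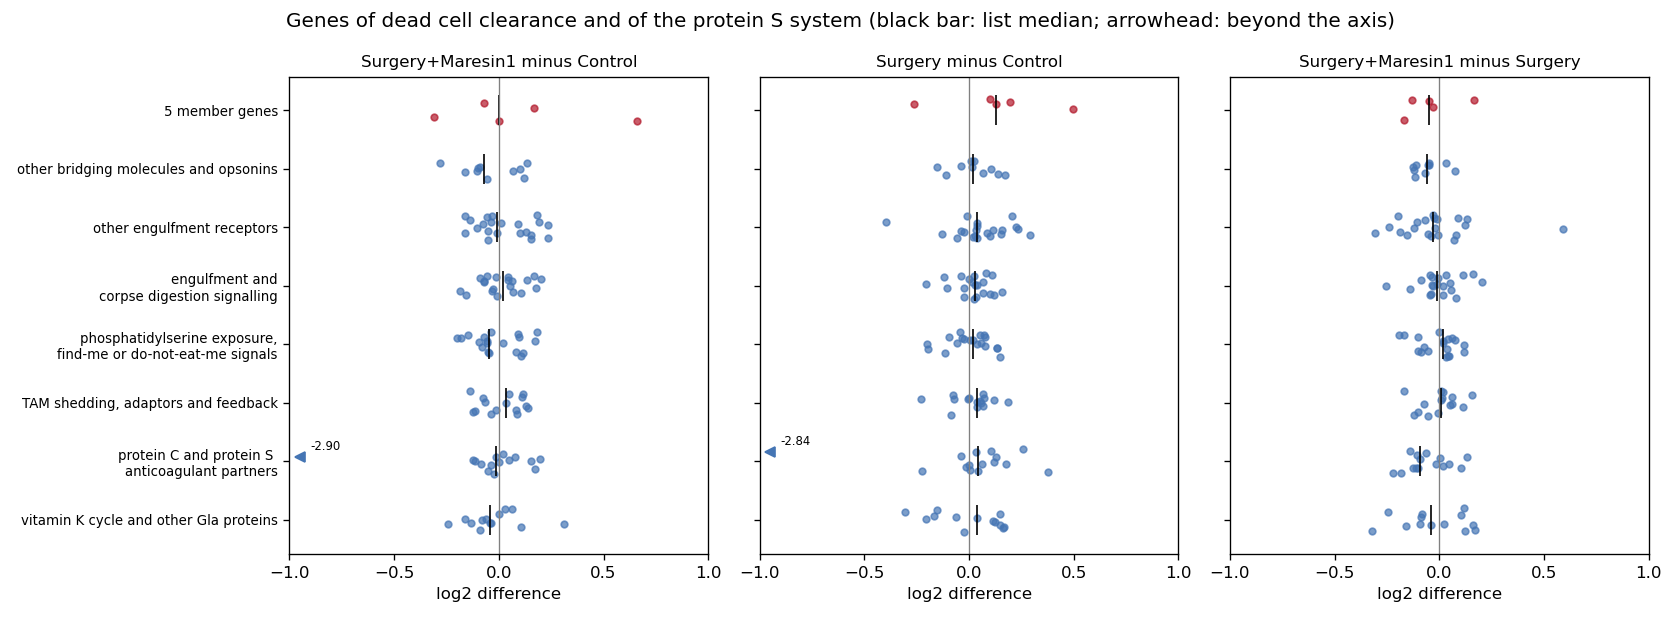
Log2 differences of single genes in the 3 comparisons, by list, with the list median as a black bar and the 5 genes of the report in red at the top. Most points lie within 0.25 of 0, and F5 lies beyond the axis at -2.90 and -2.84 against control.

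Likeness of pattern was measured as the root mean square difference of centred log2 levels over the 9 arrays, among 12836 other genes above the olfactory receptor level, as a description with no test. The genes nearest to Pros1 were Eola1 at 0.104, Bpnt2 at 0.118 and Crip1 at 0.120, where Pros1 itself deviates from its mean by 0.301. Nearest to Gas6 were Tbc1d9 at 0.0397, Hspg2 at 0.04996 and Mospd1 at 0.05001, against its own 0.185. For Tyro3 they were Zmat3 at 0.0287, Tbr1 at 0.0295 and Tmem121 at 0.0303, against 0.116. For Axl they were Hepacam at 0.0539, Mvd at 0.0542 and Prrx1 at 0.0560, against 0.156. For Mertk they were Rnf213 at 0.0436, Paqr8 at 0.0583 and Grrp1 at 0.0623, against 0.117. None of the 5 genes was among the nearest of another.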

How the data were processed

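RNA of mouse hippocampus was hybridized to 9 arrays of an Affymetrix mouse gene type, from 6 µg of total RNA each. The authors deposited 1 linear intensity per probe set and array for 35556 probe sets, made with the software Expression Console of Affymetrix, per the submitters' processing notes. Neither its version nor its algorithm is stated there. The deposited values carry no visible normalization between arrays, and 92 to 244 per array are exactly 0.

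Signals were quantile normalized, 16 was added and log2 taken, which understates changes of dim genes. Of the probe sets, 21218 name 1 gene; the probe set with the highest mean stood for each of 18820 genes. Gene identifiers of 21185 matched the RefSeq gene table, which gave current symbols. Differences were fitted with limma 3.58.1 in R 4.3.3 over all 9 arrays, with a variance prior that follows the mean, and p was adjusted over all genes (Benjamini-Hochberg, threshold 0.05). Arrays have no read depth, and 3 per group limits the precision. The titles call the replicates biological but name no animals.

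In data simulated with 100 genes changed by 0.5 and 100 by 1 on the log2 scale for Surgery+Maresin1 against Control, 74% and 100% were called, with 7 unchanged genes called. The changed genes were drawn only from genes with a mean level above the median of all genes. These shares therefore do not cover dimmer genes, among them Pros1, whose mean lies at percentile 48.2. Noise was drawn independently for each gene, so shifts shared by many genes of an array, such as the choroid plexus signal, were absent. The shares are therefore not detection rates for the real arrays. Members, lists and tests were chosen with earlier results of these data known. Named genes are the 5 members, any called gene of a pathway list, the 4 genes of each such list that ranked first by p over the comparisons, and the 3 nearest in pattern to each member, gene models and small RNA genes left out. Alternatives changed the normalization, the added constant, the filter on dim genes, the probe set rule, the arrays fitted, the variance prior and the covariates. Replicate numbers of the titles were checked for pairing. Deviations from group means correlated at -0.244 to 0.055 between same-numbered arrays, over 0.1 in 0 of 9 pairs. The check gave no sign of pairing, but with 3 arrays per group it cannot exclude it.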

Additional observations from a re-analysis of the deposited data

How the results depend on the processing

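Over 17 or 18 alternatives per comparison the differences of Pros1 kept their sign, as did those of Gas6 and Axl with Maresin 1 against control, of Axl and Mertk after surgery against control, and of Gas6, Tyro3 and Mertk between Surgery+Maresin1 and Surgery. The Pros1 call with Maresin 1 against control held in 8 of 18 and was lost in 10. It was lost with no normalization (0.61), with only the groups compared in the fit (0.66), without the variance trend (0.66), with the replicate block (0.66, limma adjusted p = 0.153), with the choroid plexus score as covariate (0.62) and with Control replicate 1 as the only control (0.60), an alternative chosen after seeing the data in which the lone control is assumed to vary like the other groups. Under each of these 6 settings 0 members were called, against 1. Leaving out single arrays gave Pros1 values from 0.57 to 0.72, with 0 to 2 members called against control with Maresin 1 and 0 to 1 for surgery against control, where Gas6 was called without Control replicate 1. The block is reported although the check gave no sign that the numbers pair the samples.

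The number of all genes called with Maresin 1 against control was 16 (13 higher, 3 lower), and 43 with no normalization (2 higher, 41 lower), 38 with arrays scaled to one median (5 higher, 33 lower), 0 with only the groups compared, without the trend or with the block (1750, 1934 and 1726 genes at an unadjusted p under 0.05), 5 with the choroid plexus covariate, 4 with Control replicate 1 as the only control, and 0 to 245 with single arrays left out (245 without Control replicate 1, 0 without Control replicate 2 or any one Surgery+Maresin1 array). For surgery against control it was 0 (1168 at an unadjusted p under 0.05), and 42 with no normalization, 37 with arrays scaled to one median, and 0 to 169 with single arrays left out, the most without Control replicate 1. Scaling to one median moved the median of all genes to 0.101 for surgery against control, where Pros1 stood at 0.54, Axl at 0.36, Mertk at 0.30 and Tyro3 at 0.26.

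Signs turned for some differences, and the values after the turn lay near 0. Tyro3 after surgery against control, 0.10 in the main fit, was -0.024 with the covariate and -0.045 with Control replicate 1 as the only control. Gas6 after surgery against control was -0.26 in the main fit and 0.015 with Control replicate 1 as the only control. Mertk with Maresin 1 against control was 0.020 with arrays scaled to one median, 0.022 with the covariate, 0.032 with Control replicate 1 as the only control, and -0.035 to 0.065 with single arrays left out. With single arrays left out, Tyro3 with Maresin 1 against control ran from -0.16 to 0.0030, and Axl between Surgery+Maresin1 and Surgery from -0.17 to 0.045. The causes were not tested.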
